A study of Homo sapiens with 6 samples.

Results

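The TRIM and RNF ubiquitin ligases were taken by name: the members were the protein-coding genes of GENCODE release 44 whose symbol is TRIM or RNF followed by a number and at most 1 letter. There were 157 such genes, 73 TRIM and 84 RNF, of 20046 protein-coding genes. The measurements were read clusters from IR-PAR-CLIP, in which a photoactivatable nucleoside crosslinks RNA to protein and an infrared adapter labels it, of IGF2BP3, an RNA-binding protein that mostly binds mRNA, in HCT116, an established human colorectal carcinoma cell line, here with the genotype Tet-OsTIR1-PURO. All cells received 100 µM 4-thiouridine for 15 h, a uridine analog that crosslinks to bound protein under UV light and is then read as T-to-C conversions in the cDNA. The 6 libraries differed in the nuclease, its concentration and the antibody. RNase I was used at 0.05/0.05, 0.1/0.025 and 0.05/0.025 U/µL, where the first number is the concentration in the lysate and the second that on the beads, and RNase T1 at 1/1 and 0.25/0.25 U/µL. The control was an IgG immunoprecipitation with RNase I at 0.1/0.025 U/µL. RNase I cuts with little sequence preference, while RNase T1 cuts after guanosine. Each condition had 1 library, so no difference between libraries has a replicate check and no p-value was computed.

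A few properties of the experiment bear on every value below. Cluster reads summed to between 182448 and 2362467 in the IGF2BP3 libraries and to 324 in the IgG library. The study's methods gave one gel extraction to RNase I 0.05/0.05 and RNase T1 1/1 and another to the other IGF2BP3 libraries, so extraction and concentration cannot be told apart across these sets. The antibody also recognises the paralog IGF2BP2 in part. RNA abundance was not measured, so binding and the amount of an mRNA cannot be told apart. Among markers of the labelled cells, the epithelial gene EPCAM met the target criteria defined below in 5 libraries, KRT8 and KRT18 in 3 each and CDH1 in 1, while the colonic markers KRT20 and VIL1, and PTPRC, COL1A1, PECAM1 and ALB as markers of other cell types, met them in 0.

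A ubiquitin ligase of the RING type brings a ubiquitin-loaded conjugating enzyme to a substrate protein, and the RING domain itself makes the contact with that enzyme. Most TRIM proteins carry a RING, B-box domains and a coiled coil, followed by a C-terminal region that differs between subfamilies, and many act in antiviral defence. RNF is a symbol given to RING finger proteins that otherwise share little, from membrane proteins of the endoplasmic reticulum to readers of chromatin marks. IGF2BP3 is an oncofetal protein with RRM and KH domains that mainly binds 3′UTRs.

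The sequences under the strongest clusters are shown first, since they are searched for tetramers below. For 5 members with high mean levels, a window of up to 30 nt nearest the mode of the cluster with most reads is given for RNase I 0.05/0.05 and for RNase T1 1/1, as the RNA strand written in DNA letters 5′ to 3′ (GRCh38). Capitals mark CATT, CAGT and CATA, tetramers searched on the RNA strand only. All windows lie in 3′UTRs.
RNF11, RNase I (chr1:51272414-51272443, + strand): tcctgctagctgactgacaaaactaagcag
RNF11, RNase T1 (chr1:51273057-51273086, + strand): gtttattaatttatatccacccaagtacat
RNF4, RNase I (chr4:2514943-2514972, + strand): tggtgaaacaggggcccagatgacaacctc
RNF4, RNase T1 (chr4:2514829-2514858, + strand): ggcccacctgtcttggctttctcatccttc
RNF114, RNase I (chr20:49952571-49952600, + strand): tgtgcagactttggcagccgtgcacctgac
RNF114, RNase T1 (chr20:49952429-49952458, + strand): ataatctagcttctccacctcttgtttcac
RNF141, RNase I (chr11:10514422-10514451, - strand): agtctttctgctggaatctaaggagtatat
RNF141, RNase T1 (chr11:10513372-10513401, - strand): tCATTCATAagttgcaaatattactatttt
TRIM32, RNase I (chr9:116700263-116700292, + strand): tgctaccaaaggggatacacaagcccttta
TRIM32, RNase T1 (chr9:116700515-116700544, + strand): gctcatCATTtttCATActacctctctctt

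The RNase T1 windows of RNF141 and TRIM32 held both CATT and CATA, and those of RNF11, RNF4 and RNF114 held none of the 3 tetramers. Counting also RNF111, TRIM14, TRIM25, TRIM28, RNF185 and TRIM2, a searched tetramer stood in 5 of 11 windows with RNase T1 and in 0 of 11 with RNase I. These counts over named members have no share over all protein-coding genes beside them. The windows lie inside their clusters, which reach 689 nt in RNF11 with RNase I, so much of a long cluster was not searched. In whole top clusters with RNase I 0.05/0.05, CATT was present for 53.7% of members, beside 60.1% of all genes. Over windows of 30 nt centred on the modes of clusters, a window length chosen after seeing the data, CATT was present in 22.9% of the 467 member clusters with RNase T1 1/1, beside 23.3% of all clusters on protein-coding exons. With RNase I 0.05/0.05 it was present in 14.9% of the 756 member clusters, beside 14.5% of all. CAGT stood in 15.2% of such member windows with RNase T1 and in 15.3% with RNase I, beside 13.7% and 14.0% of all. With RNase T1 0.25/0.25, which had 88 member clusters, CAGT lay in 6.82% of whole member clusters, beside 18.7% of all.

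Over whole clusters, CAGT and the nuclease moved together. CAGT lay in 35.8% of member clusters with RNase I 0.05/0.05 and in 10.3% with RNase T1 1/1, and in 34.9% and 11.8% of all protein-coding clusters. CATT lay in 38.9% and 36.2% of member clusters, and CATA in 23.9% and 23.1%. The median member cluster was 57 nt long with RNase I 0.05/0.05 and 33 nt with RNase T1 1/1, and 96.1% of the latter ended in G, beside 13.4% of the former. In the windows of 30 nt given above, which reach past the ends of shorter clusters, the shares for CAGT lay at 15.3% and 15.2%.

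A gene was called a target, after the study's criteria as they are read here, where at least 1 cluster had over 10 CPM, its reads scaled to the library's cluster reads, with over 0.5 T-to-C conversions a read. In the IGF2BP3 libraries, in the order given above with RNase I first, a cluster was found on 82, 66, 60, 71 and 28 members. These were 52.2%, 42.0%, 38.2%, 45.2% and 17.8% of the 157, where the same shares of all protein-coding genes were 43.7%, 32%, 30.3%, 37.6% and 16.7%. The target criteria were met by 43, 41, 46, 41 and 22 members (27.4%, 26.1%, 29.3%, 26.1% and 14.0%), beside 21.9%, 21.3%, 22%, 19.6% and 13.7% of all protein-coding genes. The share of targets among members was above that of all genes in each IGF2BP3 library, by the widest margin with RNase I 0.05/0.025. With RNase T1 0.25/0.25 these shares lay within 1 percentage point of each other. The order depended on the criteria. With over 0.75 conversions a read, members lay below all genes with RNase I 0.05/0.05 (6.37% beside 6.73%) and RNase T1 1/1 (7.01% beside 7.31%). They also did with RNase T1 0.25/0.25 (5.10% beside 7.89%), and lay above with RNase I 0.1/0.025 (18.5% beside 12.2%) and 0.05/0.025 (14.0% beside 11.5%). At 20 CPM the RNase T1 0.25/0.25 shares were 13.4% of members and 13.5% of all genes.

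**Figure D1:**
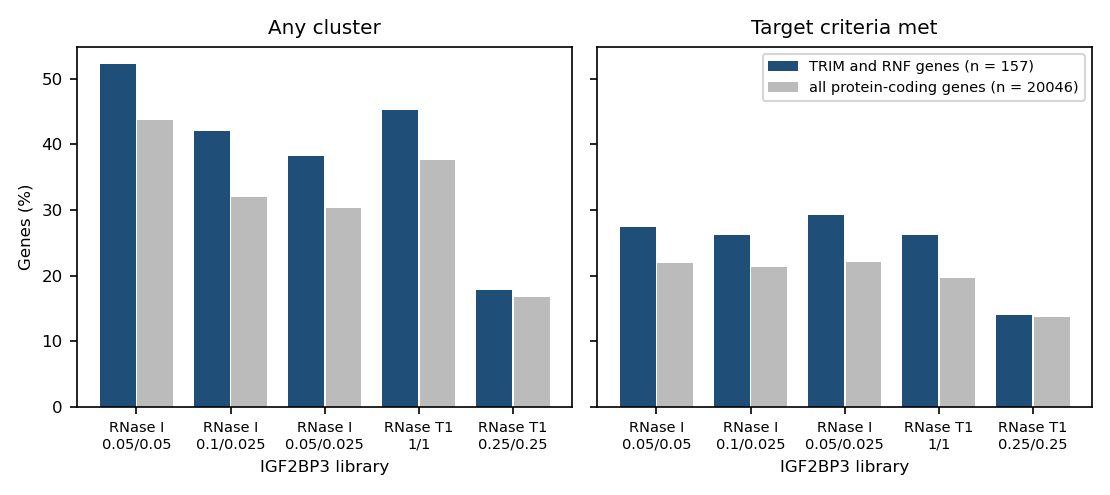
Share of genes (percent) with any cluster (left) and meeting the target criteria (right) in each of the 5 IGF2BP3 libraries. Dark bars are the 157 TRIM and RNF genes, grey bars all 20046 protein-coding genes; target shares of the members ran from 14.0% to 29.3%.

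Across the 5 IGF2BP3 libraries, 83 members (31 TRIM and 52 RNF) had a cluster in at least 1 library, 52.9% beside 46.7% of all protein-coding genes, and 74 (42 TRIM and 32 RNF) had none. Of the 83, 56 met the target criteria in at least 1 library, 35.7% beside 29.5% of all genes, and 27 in none. In all 5 libraries 19 members were targets, 12.1% beside 9.91%. Among them were RNF11, RNF4, RNF114, RNF141, TRIM32, RNF139, RNF111, RNF138, TRIM14, TRIM25, TRIM28, RNF6, TRIM5, RNF13, TRIM8, RNF185, TRIM65 and RNF166. In RNase T1 0.25/0.25, where 10 CPM is 1.82 reads, a call can rest on few reads, such as 3 for RNF185. The median 3′UTR of the canonical transcript was 1816 nt in these 19, 1744 nt in the 83 with a cluster and 563 nt in the 74 without one, while over all protein-coding genes it was 1576 nt with a cluster and 635 nt without. Longer 3′UTRs offer more sequence for clusters, and its part in the counts was not tested.

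Members with clusters that were no targets failed on different criteria in different libraries. The counts that follow have no such split over all protein-coding genes beside them. With RNase I 0.05/0.05, where 10 CPM is 23.6 reads, 38 members had no cluster above 10 CPM and 1 more failed on conversion alone. With RNase T1 1/1 the numbers were 15 and 15, and with RNase T1 0.25/0.25, where 10 CPM is 1.82 reads, 0 and 6. In the last library all 88 member clusters and all 11444 clusters on protein-coding exons had over 10 CPM. The 0 there was thus fixed by depth. RNF217, a ligase of the RING-between-RING type, had clusters but was a target in 0 libraries. Its clusters summed to 55.0, 18.7 and 19.4 CPM in the RNase I libraries and 137 and 0 CPM in the RNase T1 libraries. Its cluster with most reads in RNase T1 1/1 had 42 reads and 0.310 conversion events per read. RNF7, the RING subunit of cullin-5 ligases, had 91.9, 83.4 and 116 CPM in the RNase I libraries and 142 and 137 CPM in the RNase T1 libraries but met the criteria only in the RNase I libraries, as its leading RNase T1 clusters had 0.299 and 0.368 conversion events per read. Over all member reads the conversion rate was 0.634, 0.679 and 0.622 events per read with RNase I and 0.491 and 0.565 with RNase T1, beside 0.638, 0.651, 0.608, 0.512 and 0.552 on all protein-coding genes.

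No cluster of the IgG library lay on a member, so that 0 members had a cluster, beside 0.0449% of all protein-coding genes, and 0 were targets, beside 0.0299%. This was 0 of 324 reads, which allows a share of up to 0.926% if reads are taken as independent. The reads lay in only 25 clusters, and 0 of 25 clusters allows a share of up to 12%. In the IGF2BP3 library made with the same RNase treatment, the members held 0.555% of the reads and 0.761% of the clusters. The absence was thus not detectable as a depletion at this depth. Member reads summed to 6163, 5551, 5409, 6582 and 4796 CPM in the IGF2BP3 libraries, which was 0.727%, 0.656%, 0.649%, 0.784% and 0.575% of all cluster reads on protein-coding exons.

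The highest mean level, not adjusted for length, was that of RNF11, a small RING-H2 protein. Its clusters summed to 316, 352 and 358 CPM in the RNase I libraries and 410.5 and 597 CPM in the RNase T1 libraries. Both RNase T1 values lay above all RNase I values. By its mean over the 5 libraries RNF11 ranked 455 among all protein-coding genes, above 97.7% of them. RNF4, which ubiquitinates proteins that carry SUMO chains, had 359, 444 and 474 CPM in the RNase I libraries and 263 and 307 CPM in the RNase T1 libraries, with all RNase I values above both RNase T1 values. RNF114 had 242, 317 and 377 CPM in the RNase I libraries and 214 and 499 CPM in the RNase T1 libraries, and here the lowest and the highest value were those of the RNase T1 libraries. Per kilobase of the canonical transcript the order of these 3 changed: the mean level was 135 CPM per kb for RNF114, 132 for RNF11 and 126 for RNF4, which differ by less than the spread over their libraries. RNF139 and RNF141 followed with 71.8 and 67.7 CPM per kb.

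**Figure D2:**
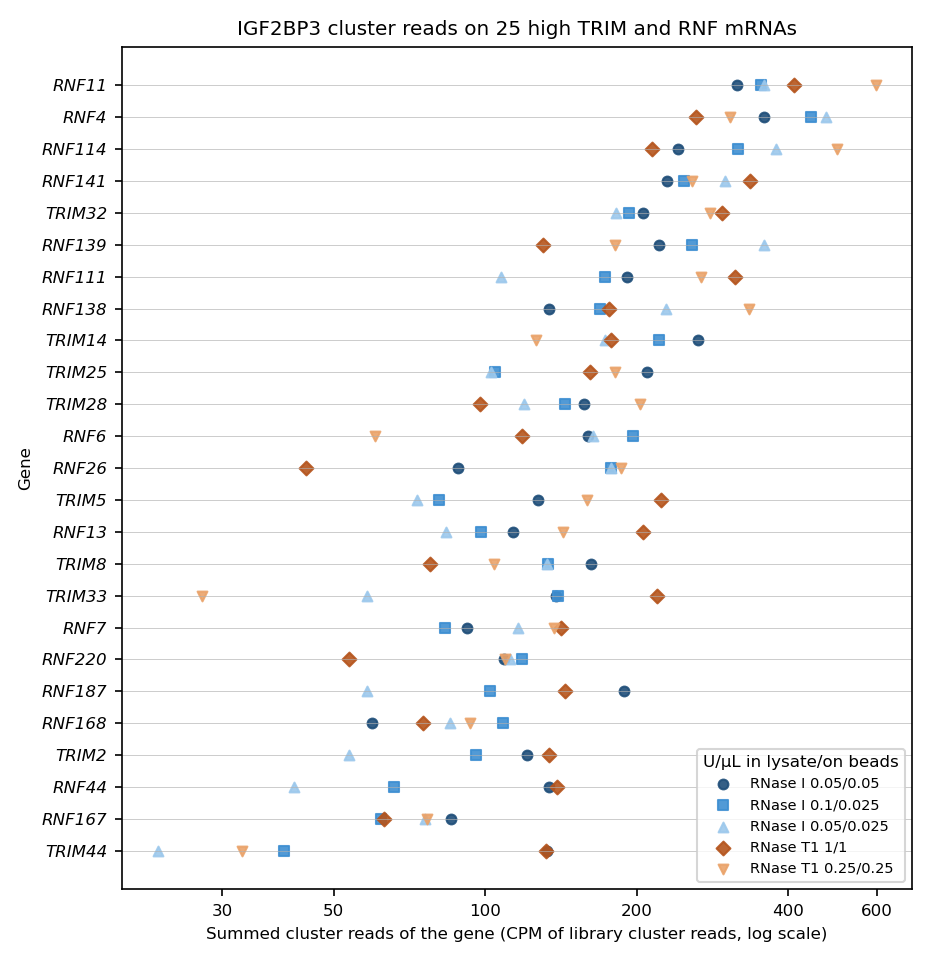
Summed cluster reads (CPM, log axis) of 25 members with high means, 1 marker for each of the 5 IGF2BP3 libraries. A level of 0 is not drawn, which concerns RNF187, TRIM2 and RNF44 in RNase T1 0.25/0.25; RNF11 runs from 316 to 597 CPM and leads the list.

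RNF141 had 229, 248 and 299.7 CPM in the RNase I libraries and 335 and 258 CPM in the RNase T1 libraries. TRIM32, an NHL-repeat TRIM that is mutated in a form of limb-girdle muscular dystrophy, had 206, 193 and 182 CPM in the RNase I libraries and 295 and 279.5 CPM in the RNase T1 libraries. In TRIM32 both RNase T1 values lay above all RNase I values, while in RNF141 the libraries overlapped.

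RNF139 (TRC8), a ligase of the endoplasmic reticulum membrane, had 222, 258 and 358 CPM in the RNase I libraries and 130.5 and 181 CPM in the RNase T1 libraries. RNF111 (Arkadia), which promotes TGF-β signalling by degrading its inhibitors, had 191, 173 and 107 CPM in the RNase I libraries and 313 and 269 CPM in the RNase T1 libraries. RNF138, which acts in DNA end resection, had 134, 169 and 228 CPM in the RNase I libraries and 176 and 334 CPM in the RNase T1 libraries. All RNase I values of RNF139 lay above both RNase T1 values, those of RNF111 lay below them, and the libraries of RNF138 overlapped.

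TRIM14, an adaptor of antiviral signalling that lacks a RING, had 265, 222 and 173 CPM in the RNase I libraries and 178 and 126 CPM in the RNase T1 libraries. TRIM25, a ligase of the antiviral RIG-I pathway, had 209.5, 105 and 103 CPM in the RNase I libraries and 162 and 181 CPM in the RNase T1 libraries. TRIM28 (KAP1), the corepressor of KRAB zinc finger proteins, had 157, 144 and 119 CPM in the RNase I libraries and 97.7 and 203 CPM in the RNase T1 libraries. Levels between genes are not adjusted for length in these sentences and are to be compared within a gene.

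By role, the members acting on chromatin and in the DNA damage response had a cluster in 11 of 12 cases, beside 46.7% of all protein-coding genes, and 8 of 12 were targets in at least 1 library, beside 29.5%. Beside RNF4, RNF111 and TRIM28, these were TRIM33, which ubiquitinates SMAD4, with 138, 139 and 58.1 CPM in the RNase I libraries and 219 and 27.4 CPM in the RNase T1 libraries, RNF168 and its paralog RNF169, RNF2 and RNF40. RNF2 (RING1B), the catalytic subunit of Polycomb repressive complex 1, had 34.3, 19.9 and 22.4 CPM in the RNase I libraries and 136 and 32.9 CPM in the RNase T1 libraries, with RNase T1 1/1 well above the rest. RNF40 and RNF20 are partners in ubiquitination of histone H2B: RNF40 had 38.1, 24.9 and 44.7 CPM in the RNase I libraries and 19.9 and 0 CPM in the RNase T1 libraries, and RNF20 had 12.7, 6.22 and 0 CPM in the RNase I libraries and 19.9 and 0 CPM in the RNase T1 libraries and was no target.

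Of 26 members of the endoplasmic reticulum, Golgi and endosome membranes, 16 (61.5%, beside 46.7%) had a cluster and 10 (38.5%, beside 29.5%) were targets in at least 1 library. RNF26 had 88.5, 178 and 177 CPM in the RNase I libraries and 44.1 and 186 CPM in the RNase T1 libraries, with the lowest value in RNase T1 1/1. RNF13, an endosomal ligase, had 113, 98.3 and 83.5 CPM in the RNase I libraries and 206 and 143 CPM in the RNase T1 libraries, with both RNase T1 values above all RNase I values. RNF185 and RNF5 are paralogs that act in degradation from the endoplasmic reticulum: RNF185 had 108, 73.4 and 37.3 CPM in the RNase I libraries and 58.8 and 16.4 CPM in the RNase T1 libraries and was a target in all 5 libraries, while RNF5 had a cluster in none. In RNase T1 0.25/0.25 the RNF185 call rested on 1 cluster of 3 reads. RNF43, which removes WNT receptors from the cell surface, had 22.9, 48.5 and 82.0 CPM in the RNase I libraries and 24.2 and 0 CPM in the RNase T1 libraries, but 96.6% of its reads lay in clusters that also overlap another gene on the same strand and cannot be assigned to either.

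Of 16 members with roles in antiviral and innate immune responses, 9 (beside 46.7% of all genes) had a cluster and 7 (beside 29.5%) were targets in at least 1 library, 4 of them in all 5 (25%, beside 9.91%). Beside TRIM14 and TRIM25 these included TRIM5, which restricts retroviruses, with 127, 80.9 and 73.1 CPM in the RNase I libraries and 223 and 159 CPM in the RNase T1 libraries. Both RNase T1 values of TRIM5 lay above its RNase I values. TRIM65 had 56.7, 47.3 and 80.5 CPM in the RNase I libraries and 60.5 and 32.9 CPM in the RNase T1 libraries.

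For the small families that follow, the shares over all protein-coding genes were again 46.7% with a cluster and 29.5% as targets in at least 1 library. In the RNF114 family, 4 of 4 members were targets. RNF125 had 40.6, 41.1 and 10.4 CPM in the RNase I libraries and 128 and 0 CPM in the RNase T1 libraries and RNF166 16.5, 14.9 and 23.9 CPM in the RNase I libraries and 12.96 and 38.4 CPM in the RNase T1 libraries. Per kb of transcript their means were 7.90 and 11.4 CPM, beside 135 for RNF114 and 58.7 for RNF138. Of 4 NHL-repeat TRIMs, TRIM32 and TRIM2 were targets and TRIM3 and TRIM71 had no cluster. TRIM2 had 121, 95.8 and 53.7 CPM in the RNase I libraries and 134 and 0 CPM in the RNase T1 libraries. Of 7 TRIMs with a COS box, which binds microtubules, 1 had a cluster and 0 were targets, and that one, TRIM36, reached 4.23, 0 and 0 CPM in the RNase I libraries and 6.05 and 0 CPM in the RNase T1 libraries. The RING-between-RING ligases had a cluster in 7 of 8 cases, with RNF14 and RNF19A as the only targets. Among 109 other RING-type ligases, listed for comparison, 54 (49.5%) were targets in at least 1 library and 22 in all 5 (beside 9.91%), and the one with most reads was MDM2, the ligase of p53, with 2046, 2833 and 2621 CPM in the RNase I libraries and 2241 and 4034 CPM in the RNase T1 libraries.

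Within pairs of paralogs, the mean per kb of transcript differed by unequal amounts. It was 13.9 CPM for TRIM33 and 0.455 for TRIM24, and 55.1 for RNF13 and 41.0 for RNF167. RNF115 had 12.3, 26.1 and 34.3 CPM in the RNase I libraries and 9.51 and 0 CPM in the RNase T1 libraries and RNF126 14.4, 22.4 and 5.96 CPM in the RNase I libraries and 20.7 and 0 CPM in the RNase T1 libraries. TRIM24 had 5.50, 0 and 0 CPM in the RNase I libraries and 13.8 and 0 CPM in the RNase T1 libraries, and RNF167 85.5, 62.2 and 76.0 CPM in the RNase I libraries and 63.1 and 76.7 CPM in the RNase T1 libraries. RNF34 had 44.9, 52.3 and 58.1 CPM in the RNase I libraries and 12.96 and 0 CPM in the RNase T1 libraries. RNF19A reached 47.8, 49.8 and 31.3 CPM in the RNase I libraries and 85.6 and 0 CPM in the RNase T1 libraries and RNF19B 12.7, 9.96 and 11.9 CPM in the RNase I libraries and 5.18 and 0 CPM in the RNase T1 libraries. RNF144A had 2.54, 7.47 and 0 CPM in the RNase I libraries and 4.32 and 0 CPM in the RNase T1 libraries, while RNF144B and RNF122 had no cluster and RNF24, a relative of RNF122, had 47.8, 6.22 and 0 CPM in the RNase I libraries and 48.4 and 0 CPM in the RNase T1 libraries and was no target. Reads that fit more than 1 place in near-identical stretches of paralogs could be split or lost by the mapping, and these levels carry that limit.

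The median member had about the same level with both nucleases in the libraries with most reads. The median log2 ratio of RNase T1 1/1 over RNase I 0.05/0.05, with 1 CPM added to each, was -0.01 over the 83 members with a cluster in either, beside -0.17 over 9198 protein-coding genes. It became 0.46 against RNase I 0.1/0.025. Among 71 members with 20 or more reads in both libraries together, 10 were more than 2-fold higher with RNase T1, where 15% of all such genes were, and 9 more than 2-fold lower, where 24.5% were. On the scale of log2(CPM + 1), which understates changes of low genes, the largest ratios were those of RNF128 (4.55), with 0 RNase I and 26 RNase T1 reads, TRIM56 (2.62), with 11 and 39, and RNF149 (2.26), with 19 and 49. The lowest were TRIM47 (-4.55), with 53 RNase I and 0 RNase T1 reads, TRIM68 (-4.41), with 48 and 0, and RNF31 (-3.42), with 23 and 0. Ratios against 0 depend on the 1 CPM added. All 6 were low in level, below 50 CPM in each library, and RNF31, TRIM47 and TRIM68 had no RNase T1 cluster in either RNase T1 library. RNF128, without a cluster in RNase I 0.05/0.05, had one of 5 reads (6.22 CPM) in RNase I 0.1/0.025.

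**Figure D3:**
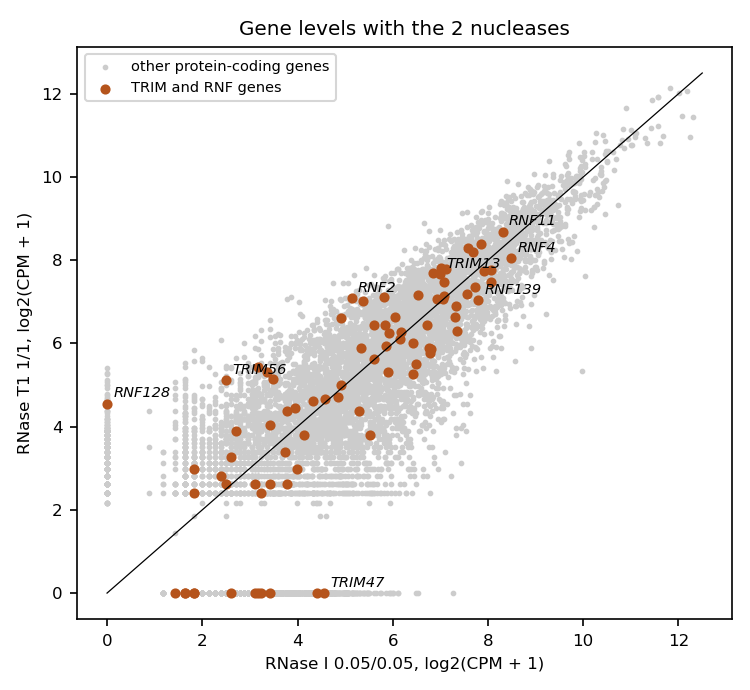
Level of each protein-coding gene with a cluster in either library, as log2(CPM + 1), with RNase I 0.05/0.05 on the x axis and RNase T1 1/1 on the y axis; the line marks equal levels. Members (orange) lie on both sides of the line, with a median log2 ratio of -0.01.

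Members' reads lay mostly in 3′UTRs. The share of member reads in 3′UTR clusters was 83.9%, 84.3% and 82.5% with RNase I and 92.0% and 90.1% with RNase T1, beside 86.6%, 88.4%, 87.5%, 91.1% and 92.0% of all protein-coding reads. Clusters in the coding sequence held 14.8%, 14.6%, 16.6%, 6.51% and 9.26% of member reads. The same shares of all protein-coding reads were 12.7%, 10.9%, 11.9%, 8.18% and 7.51%. Of 50 members with at least 100 reads in all, 4 (8% beside 7.71% of 5111 genes) had more reads in the coding sequence than in the 3′UTR, namely RNF139, RNF6, TRIM28 and RNF43. Most reads of RNF43 lay in clusters shared with another gene, as given above, and cannot be assigned to it. In RNF139, the coding sequence held 451 of 524 reads (86.1%) with RNase I 0.05/0.05 and 105 of 151 (69.5%) with RNase T1 1/1, and it was above 60% in every library. Without RNF139 the coding share of the other members was 12.1%, 10.9%, 11.3%, 5.24% and 7.24%. RNF139 was left out as the member with most coding-sequence reads, so a fall was fixed in advance. No gene was left out of the shares of all protein-coding reads, which are thus not a like comparison for these values. TRIM28 had 70.7% of its reads in the coding sequence with RNase I 0.05/0.05 and 22.1% with RNase T1 1/1, RNF111 58.0% and 26.5%, and RNF138 44.5% and 17.6%. In RNF6 the shares were 58.5% and 53.3%. The other libraries did not all follow these pairs. For TRIM28, RNF111, RNF138 and RNF6 the shares were 64.7%, 52.5%, 50% and 76.6% with RNase I 0.1/0.025. With RNase I 0.05/0.025 they were 71.25%, 34.7%, 33.3% and 59.1%. RNase T1 0.25/0.25 gave 59.5% of 37 reads, 26.5% of 49, 24.6% of 61 and 100% of 11.

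Within the 3′UTR, RNase I 0.05/0.05 covered more sequence than RNase T1 1/1. Of 68 members with 3′UTR clusters in both, 64 had the broader coverage with RNase I, 94.1% beside 94.7% of 6288 protein-coding genes. The median share of the 3′UTR under clusters was 25.9% and 8.93%. RNF4 was covered over 89.6% and 25.7% of its 3′UTR, RNF114 over 76.9% and 22.9%, and RNF26 over 78.5% and 11.5%. With the other RNase I libraries, a smaller share of members had wider coverage than with RNase T1 1/1. It was 40 of 60 with RNase I 0.1/0.025, beside 69.5% of genes, and 27 of 53 with RNase I 0.05/0.025, beside 60%. The median was 11.5% with RNase I 0.1/0.025, where RNase T1 1/1 gave 10.1%. For RNase I 0.05/0.025 the order was reversed, with 8.69% beside 10.8% for RNase T1 1/1. Cluster reads were 2362467 in RNase I 0.05/0.05, 1157194 in RNase T1 1/1, 803490 in RNase I 0.1/0.025 and 670712 in RNase I 0.05/0.025. RNase I 0.1/0.025 and 0.05/0.025 also had another gel extraction. The part of cluster reads and extraction was not tested.

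**Figure D4:**
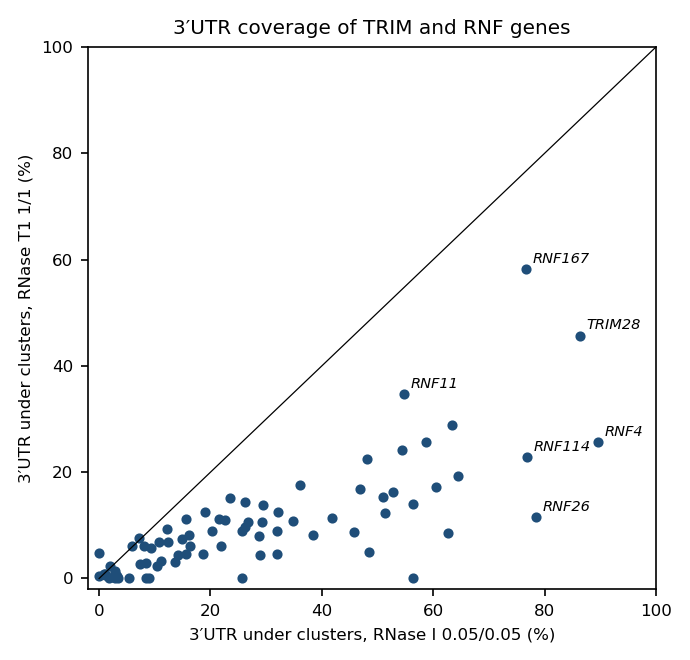
Share of each member's canonical 3′UTR under clusters (percent) with RNase I 0.05/0.05 (x axis) and RNase T1 1/1 (y axis), 1 point for each of the 78 members with 3′UTR clusters in either library. The line marks equal coverage, and 64 of the 68 members with clusters in both lie below it.

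Joining overlapping clusters over the 5 libraries gave 825 member sites. Of these, 44 were present in all 5 libraries, 5.33% beside 6.68% of the sites of all protein-coding genes, and they held 44.5% of the member reads, beside 59.8% of the reads on all protein-coding genes. Both nucleases found 251 sites (30.4%, beside 31.7% of all sites), RNase I alone 461 (55.9%, beside 55.6%) and RNase T1 alone 113 (13.7%, beside 12.7%). The last held 3.29% of the member reads, beside 2.05% over all genes. RNase I had 3 libraries here and RNase T1 2, with unequal cluster reads, so these site counts do not compare the nucleases. The site with most reads was the same with RNase I 0.05/0.05 and RNase T1 1/1 in 28 of 70 members (40%, beside 47.6% of genes), and with RNase I 0.05/0.05 and 0.1/0.025 in 46 of 65 (70.8%, beside 71.4%). Other pairs of libraries gave values between these: 27 of 51 (52.9%, beside 64.3%) for RNase I 0.1/0.025 and 0.05/0.025, 14 of 23 (60.9%, beside 60.8%) for RNase I 0.1/0.025 and RNase T1 0.25/0.25, and 17 of 27 (63.0%, beside 64.0%) for both RNase T1 libraries. Pairs within and between nucleases thus overlapped in this share. In the 50 members with at least 100 reads, a median of 40.5% of the CPM lay in the top site, and in 20 of them more than 50%. These values were not computed over all protein-coding genes, so they show no trait particular to the members.

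In RNF11, TRIM32 and RNF7 the site with most reads was the same with RNase I 0.05/0.05 and RNase T1 1/1. In RNF11 a site of 702 nt (chr1:51272268-51272969) held 77.2% of the gene's mean level, with 527 reads in 1 cluster of RNase I 0.05/0.05 and 278 reads in 10 clusters of RNase T1 1/1. A further site in RNF11 (chr1:51273042-51273103), whose RNase T1 sequence is printed above, had 23 and 98 reads. In TRIM32 the site at chr9:116700466-116700764 had 270 reads with RNase I 0.05/0.05 and 294 with RNase T1 1/1, while that at chr9:116700000-116700336 had 188 and 16. Among the 50 members with at least 100 reads, RNF7 was the most concentrated, with 91.7% of its level in 1 site at the start of its 3′UTR (chr3:141745280-141745724).

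**Figure D5:**
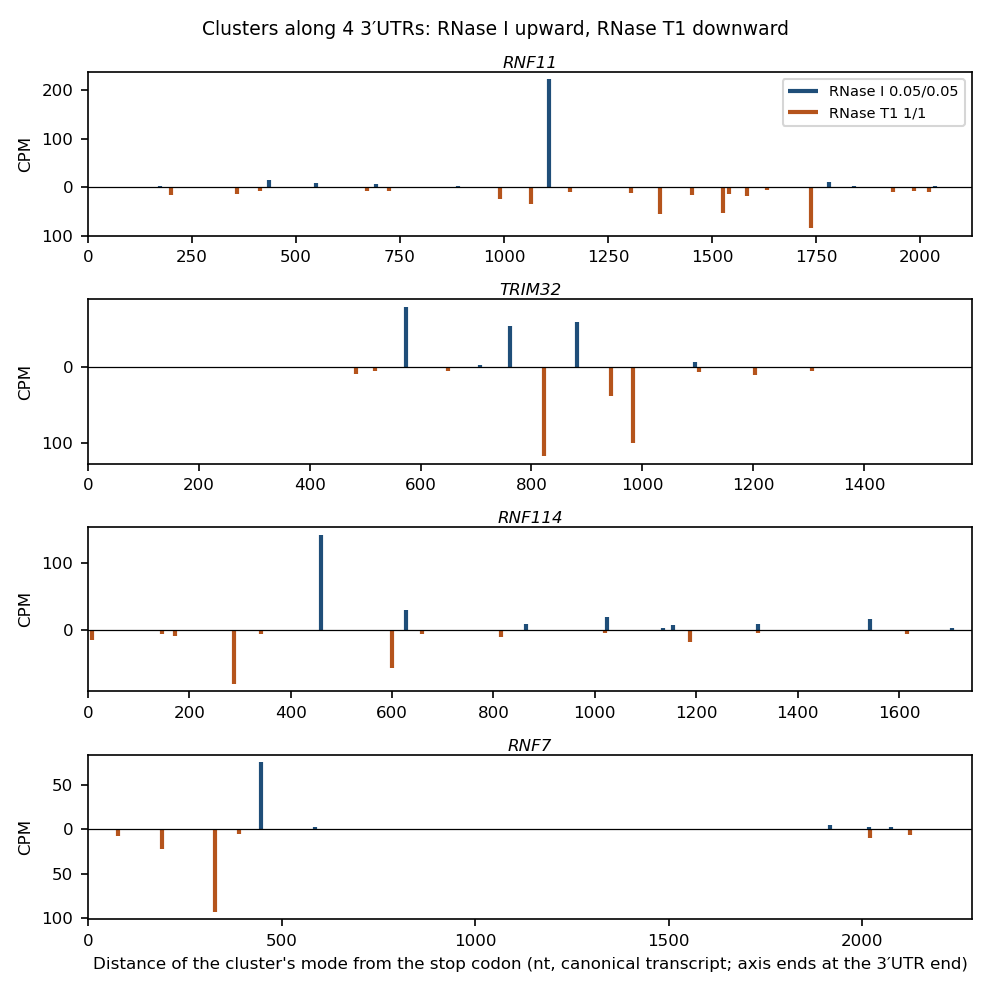
Clusters along the canonical 3′UTRs of RNF11, TRIM32, RNF114 and RNF7: each line stands at the mode of a cluster, by its distance from the stop codon (nt), with its height in CPM for RNase I 0.05/0.05 (upward) and RNase T1 1/1 (downward). In RNF11 1 tall RNase I line stands among many shorter RNase T1 lines, since a single cluster of 527 reads spans most of the site.

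The TRIM25 3′UTR also holds the hairpin of the microRNA MIR3614 (chr17:56891270-56891355, minus strand), and 33.9% of the TRIM25 reads lay in clusters shared with it. The sequence of mature hsa-miR-3614-5p (RefSeq, GRCh38.p14, chr17:56891319-56891341) is shown because a cluster covers it in each of 3 libraries, with the seed, bases 2 to 8, in capitals.
hsa-miR-3614-5p: cCACUUGGaucugaaggcugccc

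The cluster of RNase I 0.05/0.05 over it (chr17:56890932-56891426) had 278 reads, that of RNase I 0.1/0.025 (chr17:56891317-56891359) 6 and that of RNase T1 1/1 (chr17:56891314-56891354) 10. Reads from the TRIM25 mRNA and from the hairpin precursor cannot be told apart here. The strongest TRIM25 site in both nucleases (chr17:56890879-56891426) reached beyond the hairpin on both sides. In TRIM13, 31.1% of the reads lay in clusters shared with KCNRG.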

How the data were processed

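IR-PAR-CLIP was measured in 6 libraries, 1 per condition. Per the paper's methods, the authors extracted 5-nt molecular identifiers and removed duplicates with UMI-tools 1.1.1, trimmed reads to 18 to 45 nt with Trimmomatic 0.30, mapped them to GRCh38 with Bowtie 0.12.7 and called clusters with PARalyzer. The deposited tables give counts per cluster: reads, conversion events and positions; a fraction, the mode score, was deposited too and was not used. All 244645 cluster sequences matched the genome.

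Clusters were assigned to GENCODE 44 exons of the same strand by an overlap of 1 nt or more (bedtools 2.31.1), and CPM scales reads to the library's summed cluster reads. The target criteria are a reading of the study's: taking the cluster reads as the CPM denominator, and its conversion limit as 0.5 events per read, were choices made here. Features were ranked 3′UTR before coding sequence. A site joins overlapping clusters over the 5 IGF2BP3 libraries. Genes named in the text were taken by a fixed rule: the 12 highest means, the 3 highest and 3 lowest nuclease ratios, the 5 with most coding-sequence reads, the 5 highest per kb, the leading genes of each list, paralog pairs, and TRIM2 and RNF185; RNF43, RNF7 and others with values outside it were chosen after their values were seen. The members and lists were chosen with earlier results of these data known. The counts cover all 157 members, of which 1 is not reported here by name. With 1 library per condition no replicate exists, and a test of the 3 RNase I against the 2 RNase T1 libraries, which also differ in concentration and gel extraction, was not run. The cluster reads per library, 182448 to 2362467, set the precision. On simulated clusters 200 of 200 targets and 0 of 200 non-targets were called. The simulated targets were set above the criteria, and the non-targets below one of them or on the other strand. This checks the code only and gives no error rate of target calling.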

Additional observations from a re-analysis of the deposited data

How the results depend on the processing

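The alternatives left the members with a cluster within 1.5 times of their counts. Targets per library, 43, 41, 46, 41 and 22 as reported, moved beyond 1.5 times in 11 of 45 alternatives. At 20 CPM they numbered 26 (RNase I 0.05/0.05), 25 (RNase I 0.05/0.025) and 20 (RNase T1 1/1). These were 16.6%, 15.9% and 12.7%, beside 14.7%, 13.7% and 11.0% of all protein-coding genes. With at least 20 reads per cluster targets numbered 24 (RNase I 0.1/0.025), 18 (RNase I 0.05/0.025), 25 (RNase T1 1/1) and 4 (RNase T1 0.25/0.25). The shares were 15.3%, 11.5%, 15.9% and 2.55%, beside 12.4%, 10.5%, 13.4% and 2.52% of all protein-coding genes. With more than 0.75 conversion events per read targets numbered 10 (RNase I 0.05/0.05), 22 (RNase I 0.05/0.025), 11 (RNase T1 1/1) and 8 (RNase T1 0.25/0.25). The shares were 6.37%, 14.0%, 7.01% and 5.10%, beside 6.73%, 11.5%, 7.31% and 7.89% of all protein-coding genes. Targets in all 5 libraries fell from 19 to 10, 3 and 1 under these 3 criteria, counts with no share over all protein-coding genes beside them. The cause is the stricter criterion itself, and in shallow libraries 20 reads is far above 10 CPM. Summed CPM over cluster reads on protein-coding exons was 7266, 6562, 6494, 7838 and 5748, and in RNase I 0.05/0.05 without clusters shared with another gene 5959. With the coding sequence ranked before the 3′UTR the 3′UTR share was 71.3%, 75.7%, 73.4%, 87.1% and 84.1%, and with canonical transcripts alone 79.5%, 80.4%, 78.5%, 88.8% and 87.0%. The share of members with broader RNase I coverage was 66.7% with RNase I 0.1/0.025, 50.9% with RNase I 0.05/0.025 and 75% for clusters above 10 CPM, where all genes gave 92.7%; the cause was not tested. The median log2 nuclease ratio, -0.01 as reported, was 0.46 against RNase I 0.1/0.025, 0.05 for members with 20 or more reads and -0.01 with 5 CPM added.

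The tetramers were searched in the top cluster per gene, in clusters above 10 CPM and in windows of 30 nt, given in this order. With RNase I 0.05/0.05, CATT was present in 53.7%, 63.4% and 14.9% for members, beside 60.1%, 65.7% and 14.5% for all protein-coding genes. With RNase T1 1/1 the shares were 56.3%, 46.8% and 22.9%, beside 44.9%, 42.0% and 23.3%. CAGT was present in 50%, 63.4% and 15.3% with RNase I, beside 52.5%, 60.5% and 14.0%. It was present in 14.1%, 10.8% and 15.2% with RNase T1, beside 12.7%, 15.0% and 13.7%. CATA was present in 46.3%, 45.5% and 8.60% with RNase I, beside 39.7%, 43.7% and 8.93%. It was present in 29.6%, 31.0% and 13.3% with RNase T1, beside 26.4%, 25.3% and 13.7%. The window was chosen after seeing the data. No paired analysis was possible because each condition had 1 library.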
